A study of Mus musculus with 9 samples.

Results

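The fibroblast growth factor (FGF) genes described here are the secreted ligands Fgf1, Fgf2, Fgf7 and Fgf9, the FGF homologous factors Fgf12 and Fgf14, and the receptors Fgfr1, Fgfr2 and Fgfr3. These 9 genes were taken by name from 21887 protein-coding genes. Peaks were assigned to the RefSeq gene body plus 10 kb each side, here called the window. The peaks come from chromatin immunoprecipitation sequencing (ChIP-seq) of oligodendrocyte progenitor cells (OPCs), the dividing precursors of myelin-forming cells, and of oligodendrocytes (OLs) collected by their O1 surface antigen. H3K27ac, an acetylated histone residue of active promoters and enhancers, was mapped in OPC and OL of 2 epiblast stem cell lines, 129O1 and EpiSC5. For SOX6, a transcription factor of the lineage, there were lists for the OPCs of each line, but for OL only from EpiSC5.

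Both lines came from mouse 129 strains (129SvEv and 129S1/SvImJ), and each cell line gave 1 library per state and target. The labels name no genetic change or drug in any group. OPCs were grown from the stem cells without sonic hedgehog, sorted on CD140a and NG2, and expanded, and both states were harvested by magnetic sorting. Their medium held 20 ng/mL of basic FGF, the protein that Fgf2 encodes, and 20 ng/mL of PDGFA. The OL medium is not given in the sources used here, so the presence of FGF in OL cultures is unknown. The replicates were the 2 lines, with no repeat cultures of a line described, so the p-values reflect the spread of these libraries alone.

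Secreted FGFs bind receptor tyrosine kinases together with heparan sulfate on the cell surface, and the receptors signal through FRS2 and the RAS–MAPK cascade. FGF2 together with PDGF keeps cultured OPCs dividing and delays their differentiation. The receptors are known to differ by stage in this lineage, with FGFR3 in progenitors and FGFR2 in maturing oligodendrocytes. FGF homologous factors are not secreted. They bind voltage-gated sodium channels inside the cell.

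The lists held 27721 to 33738 H3K27ac peaks, covering 37.2 to 50.9 Mb, and 15487 and 22876 SOX6 peaks in OPC against 3893 in OL. The labels give a minimum read number for all samples, but the read total of any single library is unknown. All 6 OPC markers had H3K27ac in each list. Their summed breadth was 82.1 and 69.3 kb in OPC against 53.8 and 43.6 kb in OL. By the test below, 2 of them were narrower in OL and 4 were not called. The 8 oligodendrocyte markers summed to 26.7 and 18.1 kb in OPC and to 95.1 and 120 kb in OL. Of these, Mag and Enpp6 were at 0 in OPC of 129O1, and Mag and Mobp in OPC of EpiSC5. All 5 astrocyte markers had peaks in every list, with 16.9 and 11 kb in OPC and 33.2 and 14.1 kb in OL. In 129O1, Slc1a2 alone went from 3.90 kb in OPC to 17.3 kb in OL, while Gfap went from 4.56 to 4.00 kb. By the test below, none of the 5 was called. Of 4 neuron markers, 3 or 4 had peaks in each list (10.2 to 16.9 kb), and of 4 microglia markers 2 in OPC and 3 in OL (4.09 to 6.98 kb), with Cx3cr1 at 0 in all 4. The microglia marker Csf1r was at 0 in both OPC lists and had 2.78 and 1.68 kb in OL (change 1.62 ± 0.27, limma SE, n = 2 lines). It reached the mean breadth of 1 kb needed for a test through OL alone, so its gain is a description. Aif1, the other microglia marker tested, changed by −0.33 ± 0.19 and was not called. Pluripotency markers summed to 5.25 and 2.77 kb in OPC and to 2.38 and 0.24 kb in OL. The part of other cell types in the results below was not tested. In such bulk chromatin, fewer cells carrying a mark and less of it per cell cannot be told apart.

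H3K27ac breadth, the length of the window that peaks cover, divided the 9 genes. Of the 8 that reached the minimum mean breadth of 1 kb, Fgf7 and Fgfr2 were wider in OL. Fgf1, Fgf14, Fgf12 and Fgfr3 were narrower, and Fgfr1 and Fgf2 were not called. Fgf9 had no H3K27ac peak in any list, which held for 27.9% of all protein-coding genes. Calls required an adjusted p below 0.05 (limma, Benjamini-Hochberg over 12459 genes) and one direction shared by the lines, and they took in 12.5% of tested genes as wider and 16.4% as narrower, 28.9% in all. Wide genes enter the test through the state in which they are wide, so the share of FGF genes called is a description. So are the p-value and rank of a gene near 0 in one state, such as Fgf7 in OPC or Fgf1 in OL. The median tested gene changed by −0.24 on the log2 scale of scaled covered kb plus 1, the scale of every change given here, and by −0.13 without scaling to equal covered length. Without scaling the calls over all genes were 1562 wider and 1143 narrower, against 1562 and 2041. A shared direction was a condition of the calls, and the uncalled Fgfr1 and Fgf2 also had the same direction in both lines. Across all tested genes the changes of the 2 lines correlated (r = 0.815). The share of all genes with a shared direction, or with states that did not overlap, was not counted. Such remarks on single genes below are therefore descriptions. All 8 genes kept their direction without scaling. With OPC of 129O1 or OPC of EpiSC5 left out, and no cell line in the model, limma called 0 of the 9, and 0 of all genes (2769 and 2451 at an unadjusted p under 0.05).

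**Figure D1:**
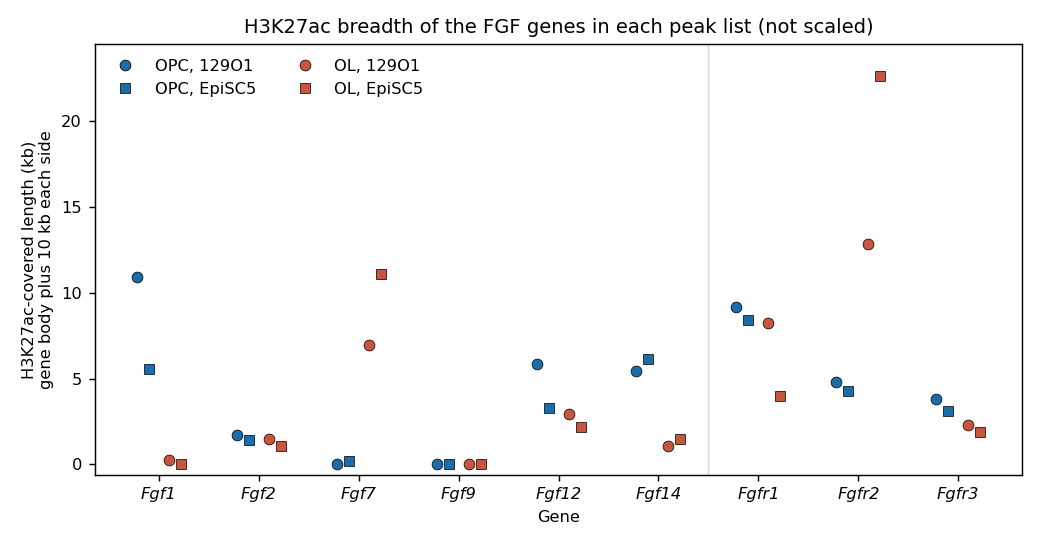
H3K27ac-covered length in kb (not scaled, y axis) within the window of each gene (x axis), with blue for OPC, red for OL, circles for 129O1 and squares for EpiSC5. Fgf1 is high in OPC and near 0 in OL, Fgf7 and Fgfr2 are highest in OL, and Fgf9 is at 0 in all 4 lists.

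Fgf7, which encodes a secreted ligand of the IIIb splice form of FGFR2 and is also known as keratinocyte growth factor, showed the largest gain of the group. It lies on chromosome 2 from 126034658 to 126091185 (mm10), within the body of Fam227b. In OPC, peaks covered 0 kb in 129O1 and 0.217 kb in EpiSC5, and in OL they covered 6.955 and 11.1 kb. The 2 states did not overlap. Breadth rose by 3.07 ± 0.19 (limma SE, n = 2 lines, adjusted p = 0.00200), with 2.84 in 129O1 and 3.31 in EpiSC5. It was the 9th largest gain of 12459 genes, a set that Fgf7 entered through its OL breadth. With no minimum breadth its adjusted p was 0.1285 (limma). The OL acetylation formed 1 region of 8032 bp from 126032707 to 126040738, which spans the start site, and 1 of 2215 bp some 7.5 kb into the body. OL of EpiSC5 alone held a further 904 bp from 126053034. All of these regions also lie within Fam227b, so the lists cannot assign them to a single gene. The start-site region covered 5875 bp in OL of 129O1 as 2 peaks and 7960 bp in OL of EpiSC5 as 1, at or above 99.6% of that list in width. The authors' fold enrichment there was 8.62 and 9.18, at or above 97.5% and 98.4% of peaks within those lists. The OPC peak of EpiSC5 was a 217 bp stretch of the same region with a fold enrichment of 3.17.

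The Fgf7 promoter window, 250 bases before to 50 after the RefSeq start site, was under H3K27ac in OL of both lines and in no OPC list. Of 32851 promoter windows, 0.654% had this pattern, 3.17% had H3K27ac in OPC of both lines alone and 25.7% in all 4 lists. The letters ACAAAG, close to the core that SOX proteins bind, occur once, on the minus strand, shown as its reverse complement CTTTGT in capitals. ACAAAG or its reverse complement occurs in 18.7% of all windows, and AACAAT or ATTGTT, the second spelling searched, in 10.7%. The sequences (RefSeq, GRCm38.p6, the assembly of mm10) are shown to set starts acetylated in one state beside starts acetylated in both. The Fgf7 window was held by OL alone and the upstream Fgf12 window by OPC alone. The internal Fgf12 window and the Fgfr3 window shown were held by all 4 lists. Another Fgfr3 window, from 33721474, was under H3K27ac in OPC and OL of 129O1 alone. Neither motif occurs in those of Fgf12 and Fgfr3.
Fgf7, chr2:126034408-126034707, plus strand: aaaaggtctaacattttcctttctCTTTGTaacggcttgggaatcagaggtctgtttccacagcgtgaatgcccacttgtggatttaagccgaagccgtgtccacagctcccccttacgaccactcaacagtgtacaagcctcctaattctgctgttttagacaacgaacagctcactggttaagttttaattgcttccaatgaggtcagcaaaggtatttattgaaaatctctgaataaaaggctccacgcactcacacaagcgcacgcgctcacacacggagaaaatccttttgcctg
Fgf12 upstream start, chr16:28753194-28753493, minus strand: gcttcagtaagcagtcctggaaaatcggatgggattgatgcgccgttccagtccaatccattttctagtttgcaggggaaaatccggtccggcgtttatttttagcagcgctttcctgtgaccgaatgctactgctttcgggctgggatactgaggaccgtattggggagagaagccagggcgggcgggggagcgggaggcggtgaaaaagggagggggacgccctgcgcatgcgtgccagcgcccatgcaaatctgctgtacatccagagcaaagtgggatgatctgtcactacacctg
Fgf12 internal start, chr16:28446026-28446325, minus strand: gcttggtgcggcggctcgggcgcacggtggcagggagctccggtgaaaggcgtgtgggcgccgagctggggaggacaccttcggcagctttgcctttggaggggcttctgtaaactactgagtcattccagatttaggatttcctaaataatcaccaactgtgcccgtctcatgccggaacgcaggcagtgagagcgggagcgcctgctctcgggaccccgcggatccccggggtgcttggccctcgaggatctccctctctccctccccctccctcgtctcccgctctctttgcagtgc
Fgfr3, chr5:33722056-33722355, plus strand: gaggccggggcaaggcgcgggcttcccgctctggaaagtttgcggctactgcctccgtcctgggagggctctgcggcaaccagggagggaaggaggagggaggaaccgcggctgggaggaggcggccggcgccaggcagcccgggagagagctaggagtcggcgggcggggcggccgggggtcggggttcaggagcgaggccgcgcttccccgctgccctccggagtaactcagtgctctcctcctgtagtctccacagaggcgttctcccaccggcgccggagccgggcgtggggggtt

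In base composition the Fgf7 window had 45.7% G and C, at the 25.1 percentile of all windows. The Fgf12 windows shown had 56.3% and 63.7%, and the Fgfr3 window shown 73.0%, at the 94.5 percentile. The observed over expected CpG ratio was 0.72 for Fgf7, 0.78 and 0.72 for Fgf12 and 0.78 for Fgfr3, close to one another, against a median of 0.38 over all windows. In all, 11 windows belong to 7 of the genes, and Fgf1 and Fgfr1 have none in the table used. No window of Fgf2, Fgf9, Fgf14 or Fgfr2 was under a peak of any list. The only Fgf14 window is that of an internal start at 124192546. The upstream end of Fgf14 has no window in the table used, and the H3K27ac there is described below.

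Fgf1, which encodes acidic FGF, a ligand of all FGF receptors, showed the largest loss. It lies on chromosome 18 from 38838672 to 38929470, inside the much longer Arhgap26, and the body of Gm5820 overlaps it in part. Peaks covered 10.9 kb in OPC of 129O1 and 5.58 kb in OPC of EpiSC5, against 0.256 kb and 0 kb in OL. Both OL values lay far below both OPC values. The change was −3.07 ± 0.18 (limma SE, n = 2 lines, adjusted p = 0.00195), with −3.18 in 129O1 and −2.96 in EpiSC5, the second largest loss of all tested genes. All of it lay in the higher-coordinate part of the gene. Besides the 6391 bp region from 38902747 to 38909137, both OPC lists and neither OL list held a region of 1717 bp from 38889485 and one of 1106 bp from 38917959. A 482 bp region from 38914807 was held by both 129O1 lists and gave OL its only peak, and 1427 bp across the end of the body was held by OPC of 129O1 alone. Since all 5 regions also lie within Arhgap26, the lists cannot assign them to one gene. From the higher-scoring 50% of peaks the change was −1.48 and not called (adjusted p = 0.277, limma). With no minimum breadth, which Fgf1 reached through OPC, its adjusted p was 0.1285 (limma).

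Fgf2, which encodes the basic FGF added to the OPC medium, had no H3K27ac over its body or promoter window in any list. It lies on chromosome 3 from 37348477 to 37410106. The only region in its window starts 8.3 to 8.9 kb past the end of the body, depending on the list, and lies over Nudt6 and Spata5. The stretch inside the window measured 1.70 and 1.41 kb in OPC and 1.47 and 1.09 kb in OL. The change of −0.25 ± 0.20 (limma SE, n = 2 lines, adjusted p = 0.336) was not called, and the unscaled values of the states overlapped while the scaled ones did not. It does not concern the body of Fgf2. Over the body alone Fgf2 had nothing to test.

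Fgf9, a ligand known from neurons and glia, lies on chromosome 14 from 58070671 to 58112854 and was empty in all 7 lists. The nearest H3K27ac peak lay 71.1 to 71.5 kb from its body in the 4 lists. Absence from a peak list says only that no peak was listed there.

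**Figure D2:**
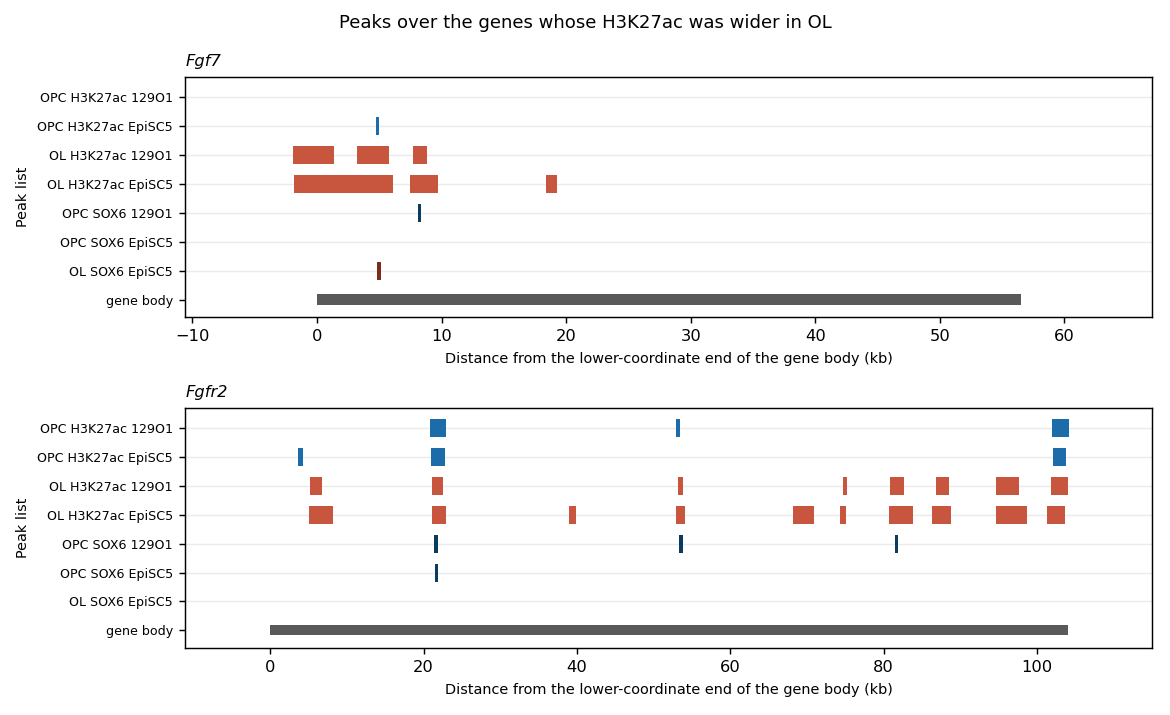
Peaks of the 7 lists (rows) over Fgf7 and Fgfr2, with distance from the lower-coordinate end of the gene body in kb on the x axis and the gene body in grey. Very short peaks are drawn at a minimum width so that they can be seen. At Fgf7 the OL peaks cluster at the start of the gene, and at Fgfr2 they spread along the body while each OPC H3K27ac list has peaks at 3 places.

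Among receptors, Fgfr2 gained. FGFR2 binds FGF7 or other FGFs depending on its splice form. The gene lies on chromosome 7 from 130162451 to 130266808, on the minus strand. Covered length in the OPC lists was 4.78 kb (129O1) and 4.27 kb (EpiSC5), and in the OL lists 12.9 and 22.6 kb. Both OL values exceeded both OPC values, and the OL of EpiSC5 was the highest of any FGF gene in any list. Breadth rose by 1.59 ± 0.23 (limma SE, n = 2 lines, adjusted p = 0.00798), with 1.19 in 129O1 and 1.99 in EpiSC5. As a ratio of unscaled lengths, OL had 2.69 times the OPC breadth in 129O1 and 5.3 times in EpiSC5. The call ended from the higher-scoring 50% of peaks (1.56, adjusted p = 0.125, limma) and, in a model with no cell line, without OL of EpiSC5 (1.10, adjusted p = 0.0511, limma).

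Of the 11 regions at Fgfr2, 5 were held by OL of both lines alone. The widest, 4098 bp from 130257079 to 130261176, lies 5632 bp from the RefSeq start site, inside the body, and had the authors' fold enrichment of 6.83 and 9.24 in the OL lists. The next were 3140 bp from 130243102, 3118 bp from 130167567 and 2514 bp from 130248715, with 824 bp from 130236746 the shortest. OL of EpiSC5 alone held a further 2, of 2736 and 835 bp. All 4 lists shared 2 regions, one of 2855 bp whose edge is 211 bp from the start site and one of 2085 bp from 130183338. The region next to the start site covered 2182 and 1711 bp in OPC and 2303 and 2350 bp in OL. Most of the OL breadth lay at places along the gene body with no peak in OPC.

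Fgfr1 and Fgfr3 did not gain. Fgfr1, a receptor that binds FGF2, lies on chromosome 8 from 25518759 to 25575718. Its breadth was 9.16 and 8.40 kb in OPC and 8.24 and 4.02 kb in OL. The OL value of 129O1 was close to OPC, and only OL of EpiSC5 was low. The change of −0.65 ± 0.25 was not called (adjusted p = 0.101, limma, n = 2 lines), with −0.19 in 129O1 and −1.11 in EpiSC5, and whether the lines differ was not tested. Under a stricter minimum of 3 kb it was called narrower (adjusted p = 0.0310, limma), and likewise without OL of 129O1 and the cell line term (−0.99, adjusted p = 0.0386, limma). The 3 widest regions, of 2410, 3213 and 3588 bp, were held by all 4 lists. At the region from 25542587 the peaks measured 3539 and 3117 bp in OPC and 2616 and 2056 bp in OL. Part of these regions also lies over the long non-coding RNA gene Gm31288, which overlaps Fgfr1.

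Fgfr3, a receptor whose loss is known to delay oligodendrocyte maturation, lies on chromosome 5 from 33721724 to 33737068. It had 3.84 and 3.14 kb in OPC against 2.27 and 1.92 kb in OL, without overlap. The change was −0.64 ± 0.17 (limma SE, n = 2 lines, adjusted p = 0.0372), with −0.60 and −0.68 in the lines. The promoter region of 2813 bp from 33721260 was held by all 4 lists, and a second region of 1185 bp from 33725625 by both OPC lists alone. This call was the least stable of the 6. Of 12 alternatives it held in 1, the model without the cell line, and with 50 kb each side the change was −0.07.

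**Figure D3:**
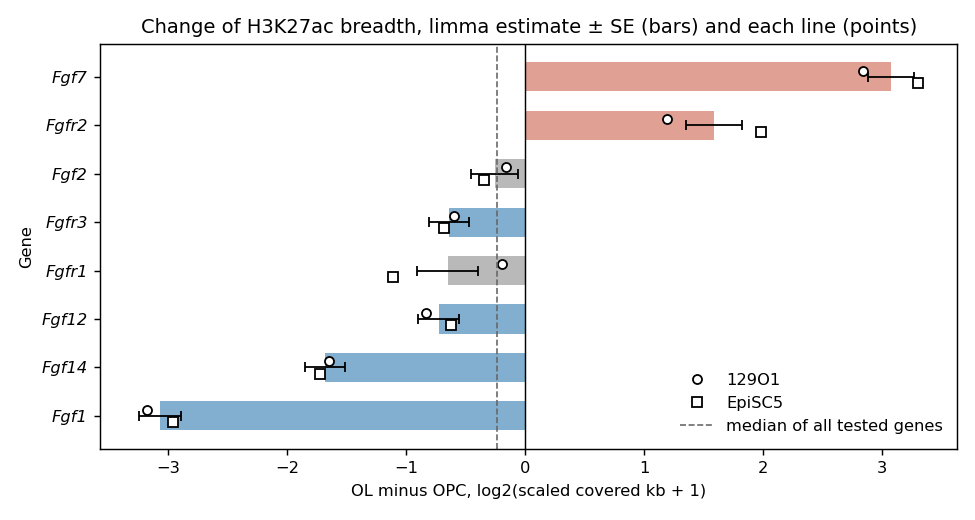
Change of H3K27ac breadth from OPC to OL (x axis, log2 of scaled covered kb plus 1) for the 8 tested genes (y axis). Bars give the limma estimate with its SE, circles and squares the change in 129O1 and EpiSC5, red bars genes called wider, blue narrower and grey not called, and the dashed line the median of all tested genes at −0.24. Fgf7 and Fgf1 lie at 3.07 and −3.07, at opposite ends.

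The FGF homologous factors both narrowed. Fgf14, whose protein is known to tune neuronal sodium channels, lies on chromosome 14 from 123974441 to 124677686, on the minus strand. Its breadth was 5.47 and 6.17 kb in OPC and 1.05 and 1.51 kb in OL. All OPC values were above all OL values, and the change was −1.68 ± 0.17 (limma SE, n = 2 lines, adjusted p = 0.00338), with −1.65 and −1.72 in the lines. The main region, 3298 bp from 124674729 at the upstream end of the gene, was present in all 4 lists but shorter in OL. It measured 3178 and 3298 bp in OPC and 1053 and 1055 bp in OL. Both OPC lists and no OL list also held 530 bp some 4 kb from it, 1018 bp within the body and 1150 bp beyond the downstream end, where the body of Itgbl1 lies. From the higher-scoring 50% of peaks Fgf14 missed the call (−2.16, adjusted p = 0.0516, limma).

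Fgf12, which also encodes a sodium channel partner, lies on chromosome 16 from 28157783 to 28753243, on the minus strand. It had 5.87 and 3.29 kb in OPC and 2.95 and 2.16 kb in OL. The states did not overlap, but OPC of EpiSC5 was close to OL of 129O1. The change was −0.73 ± 0.17 (limma SE, n = 2 lines, adjusted p = 0.0292), and 9 of 13 alternatives ended the call, among them no scaling (−0.62, adjusted p = 0.0650, limma) and the model without the cell line (adjusted p = 0.0529, limma).

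Its start sites differed. The upstream start lay in a 1280 bp region of both OPC lists that no OL list held. The internal start lay in a region of all 4 lists that measured 1198 and 1126 bp in OPC and 890 and 231 bp in OL. There the authors' fold enrichment was 11.99 and 10.1 in OPC, at or above 98.7% and 98.4% of peaks in those lists, and 3.57 and 3.17 in OL, at or above 40.1% and 19.2%. The other two start windows of Fgf12, some 407 kb from the lower end of the body, were under no peak. Away from start sites, 1011 and 1144 bp regions were held by OPC of both lines alone and 1236 and 762 bp regions by OL of both lines alone.

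**Figure D4:**
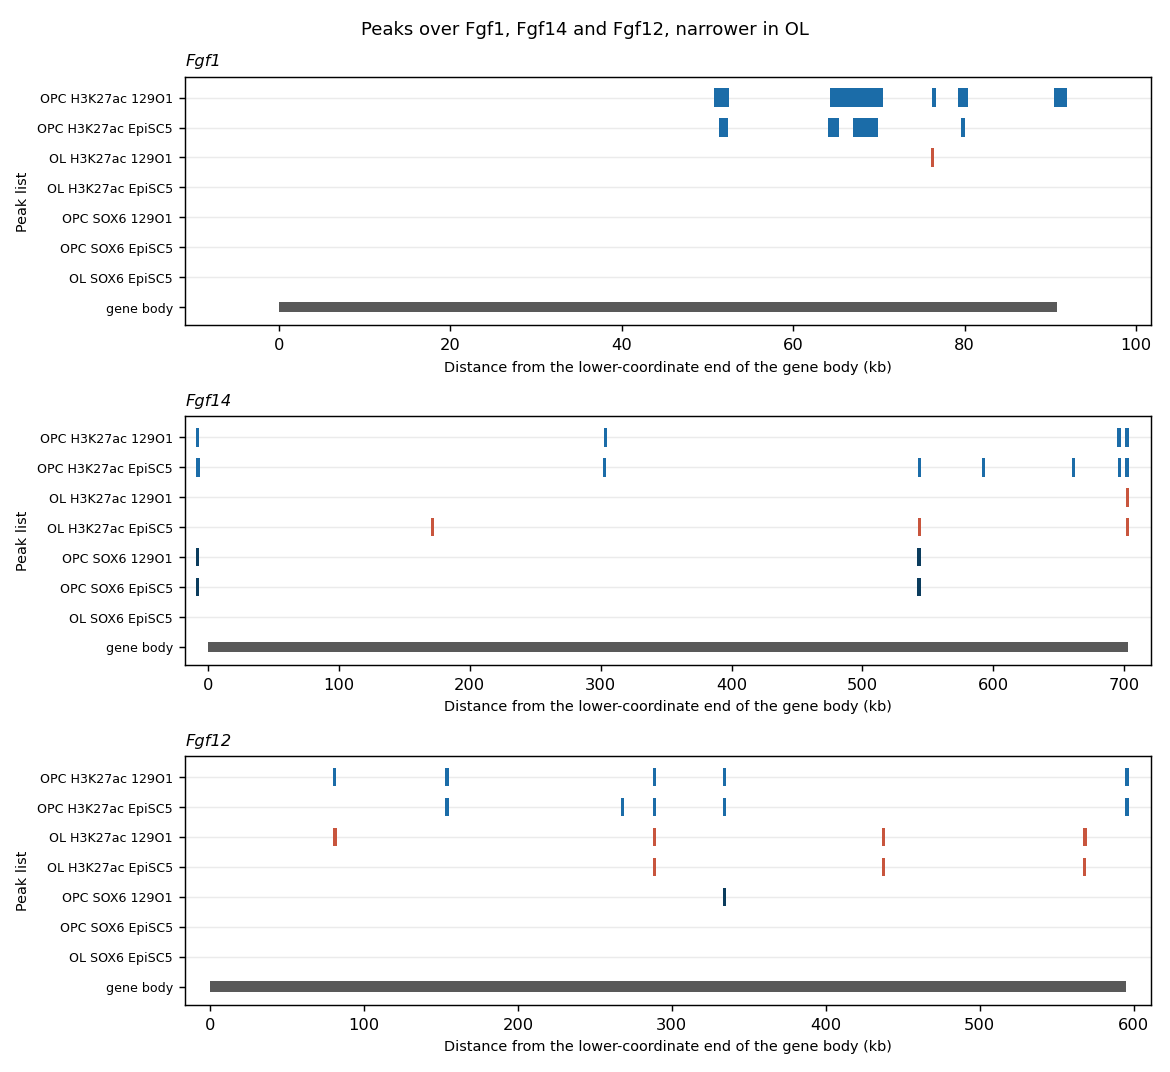
Peaks of the 7 lists (rows) over Fgf1, Fgf14 and Fgf12, with distance from the lower-coordinate end of the gene body in kb on the x axis and the gene body in grey. Very short peaks are drawn at a minimum width. Fgf1 peaks are nearly all in OPC, Fgf14 keeps a peak at its upstream end (right) in all 4 H3K27ac lists, and the upstream start of Fgf12 (right) has peaks in OPC alone.

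Per length of window the genes ranked differently from their kb. In OPC the share of the window under H3K27ac was 11.9% and 10.9% at Fgfr1, 10.9% and 8.88% at Fgfr3 and 9.84% and 5.04% at Fgf1. These 3 had neighbouring or overlapping ranges over the lines and lay above the median tested gene (6.25% and 4.91%). Fgfr2 (3.85% and 3.43%) and Fgf2 (2.09% and 1.73%) came next, each apart from its neighbours. Fgf12 (0.954% and 0.535%) and Fgf14 (0.756% and 0.853%) were not separated. In OL the order was headed by Fgfr2 (10.3% and 18.2%), Fgf7 (9.09% and 14.5%), Fgfr1 (10.7% and 5.22%) and Fgfr3 (6.43% and 5.43%), whose ranges overlapped from one to the next, against a median of 6.05% and 4.64%. Both homologous factors are long genes, with bodies of 595 and 703 kb, and thus thinly covered, at under 1% in every list.

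Over the 9 windows there were 43 merged H3K27ac regions. OPC of both lines alone held 10 of them (23.3%, against 11.1% of all 49677 merged regions), OL of both lines alone held 8 (18.6% against 16.7%) and all 4 lists held 9 (20.9% against 30.1%). Both 129O1 lists held 2 (4.65% against 2.4%), as did both EpiSC5 lists (4.65% against 0.451%), and single lists held 10. No test was made of these shares. The 10 OPC regions lay at Fgf1, Fgf12 and Fgf14, 3 each, and at Fgfr3, and the 8 OL regions at Fgfr2 (5), Fgf12 (2) and Fgf7 (1). At Fgf7 the start-site region was not counted among them, because of the 217 bp OPC peak of EpiSC5.

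SOX6 peaks in OPC of both lines were found at 3 of the 9 windows, those of Fgfr1, Fgfr2 and Fgf14, against 31.2% of all protein-coding genes, a like share. All of the 9 but Fgfr3 have bodies longer than the median gene (17.2 kb), and longer windows have more room for a peak. The SOX6 shares given here were not matched for gene length. OPC of 129O1, the longer list, held 11 peaks at 5 genes (44.5% of all genes had one), OPC of EpiSC5 held 4 at 3 genes (32.6%) and OL of EpiSC5 held 1 (16.3%). Fgf1, Fgf2, Fgf9 and Fgfr3 had no SOX6 peak within the window in any list. Fgf1, which lost the most breadth, had SOX6 33.0 and 32.9 kb from its body in OPC of 129O1 and EpiSC5. Whether SOX6 had a part in that loss was not tested.

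At Fgfr1 the SOX6 peaks of both lines met at 25545100 and 25545094 (summits), with the authors' fold enrichment of 6.18 and 5.44, within the H3K27ac region held by all 4 lists. The 3 further Fgfr1 peaks were in 129O1 alone. At Fgfr2 both lines shared summits at 130184155 and 130184148 (fold enrichment 5.77 and 4.52), again inside a region of all 4 H3K27ac lists. OPC of 129O1 had 2 further Fgfr2 peaks, and the one at 130244089 lay in the 3140 bp region that was acetylated in OL of both lines and in neither OPC list. Fgf14 had 2 sites shared by both lines, at 543 kb in the body and beyond its downstream end.

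The strongest SOX6 peak by fold enrichment was at Fgf12 in OPC of 129O1. It was 393 bp wide with its summit at 28491953, a fold enrichment of 13.18 and a −log10 q of 108.48, at or above 94.4% of that list, and lay in the 1144 bp H3K27ac region held by OPC alone. OPC of EpiSC5 listed no SOX6 peak there. At Fgf7, OPC of 129O1 had a weak peak (fold enrichment 3.34) at 126042813 and OL of EpiSC5 a peak of 4.62 at 126039609, both inside H3K27ac regions of OL, the latter also overlapping the 217 bp OPC peak of EpiSC5. The OL peak was the only SOX6 peak of OL over the 9 genes. In OPC of EpiSC5 the peaks at Fgfr1, Fgfr2 and Fgf14 had no counterpart in OL of the same line. Of the 7128 genes with SOX6 in OPC of EpiSC5, 4763 likewise had none in OL, which is 21.8% of all genes. The OL list is much the shorter and has no replicate, so this has no test.

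Of the 11 OPC SOX6 peaks of 129O1, 7 lay in H3K27ac of the same cells, against 69.4% of all peaks of that list. For EpiSC5 it was 3 of 4 against 68.0%, and for OL 1 of 1 against 74.1%.

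The other genes of the pathway were taken from 6 lists. Of 14 other secreted ligands only Fgf18 and Fgf22 had enough H3K27ac to be tested, and neither was called (−0.44 ± 0.28 and 0.07 ± 0.21). Fgf11, a homologous factor, was narrower (−0.86 ± 0.19, adjusted p = 0.0246, limma, n = 2 lines), and Fgf13 was not tested. Of 5 tested receptor relatives and co-receptors 3 were narrower and 1 wider, with a median of −0.95 against −0.24 for all tested genes, of which 16.4% were narrower and 12.5% wider. Fgfrl1, a receptor without a kinase domain, fell by 0.95 ± 0.18, and the FLRT adhesion proteins, which bind FGF receptors, were divided. Flrt2 and Flrt3 changed by −1.89 ± 0.20 and −1.77 ± 0.29 and Flrt1 by 0.68 ± 0.20.

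Among 20 signal relay genes, 3 were wider, 2 narrower and 15 not called, with a median of −0.26, near the shares (12.5% wider, 16.4% narrower) and the median (−0.24) of all tested genes. Ptpn11, the phosphatase SHP2 that acts below receptors, rose by 2.15 ± 0.17 (limma SE, n = 2 lines, adjusted p = 0.00246), from 3.38 and 2.32 kb in OPC to 19.2 and 15.6 kb in OL. Plcg1, a phospholipase recruited by FGF receptors, rose by 1.23 ± 0.17 and Map2k2 by 0.83 ± 0.17. Map2k1, which encodes the related kinase MEK1, changed by −1.34 ± 0.18, and the adaptor gene Shc1 by −0.69 ± 0.17. Frs2, the docking protein of the receptors, stood at −0.25 ± 0.17 and was not called.

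Of 15 tested feedback and target genes, 11 were narrower and 0 wider, and each of the 4 others also had a negative estimate. Of all tested genes 16.4% were narrower. The median of the list was −0.78 against −0.24, and earlier results of these data showed most of them. Beside those, Il17rd, a membrane inhibitor of FGF signalling, changed by −1.44 ± 0.27, with 7.52 and 3.37 kb in OPC and 3.57 and 0.302 kb in OL. Spred3, also an inhibitor, changed by −0.71 ± 0.17. 

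Heparan sulfate genes, which supply the co-receptor sugar, went both ways. Of 22 tested, 5 were wider, 6 narrower and 11 not called, with a median of −0.30, against 12.5%, 16.4% and −0.24 for all tested genes. The core protein genes Sdc3 (−2.01 ± 0.18), Sdc1 (−0.87 ± 0.20) and Gpc6 (−0.78 ± 0.19), with the chain-making Ext1 (−1.15 ± 0.17) and the sulfotransferase gene Hs3st3b1 (−1.46 ± 0.26) led the losses. Gpc3 (1.69 ± 0.31), the further sulfotransferase genes Hs6st3 (1.38 ± 0.21) and Ndst1 (1.05 ± 0.18), the sulfatase Sulf2 (0.99 ± 0.15) and Ext2 (0.59 ± 0.17) rose. Gpc3 was at 0 in both OPC lists, so it entered the test through OL alone.

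**Figure D5:**
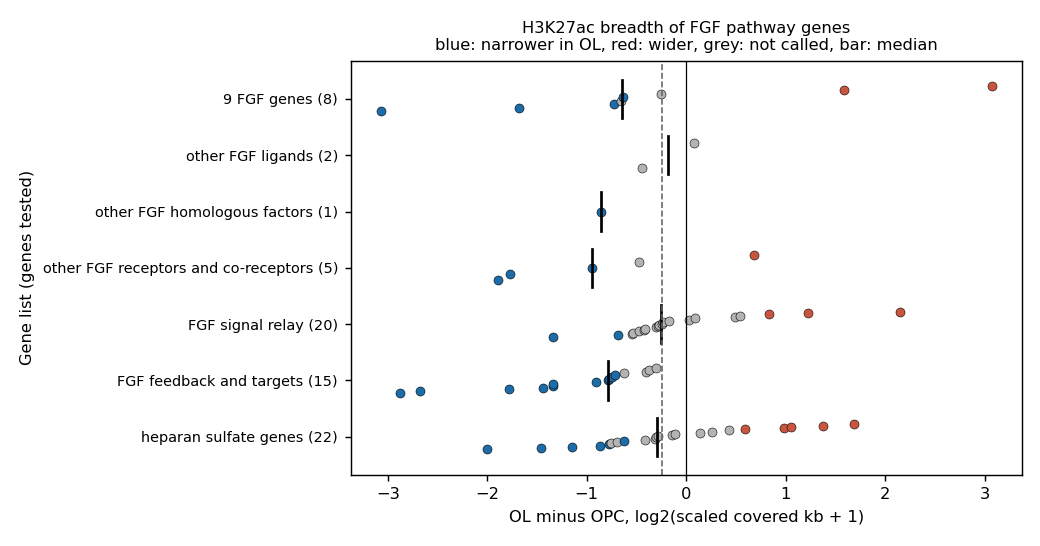
Change of H3K27ac breadth from OPC to OL (x axis, log2 of scaled covered kb plus 1) for each tested gene of the FGF pathway lists (rows, number tested in parentheses), with blue for narrower, red for wider and grey for not called. Black bars are list medians and the dashed line is the median of all tested genes, and the feedback list lies wholly to the left of 0.

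By Euclidean distance over the 4 log2 breadths, the genes most like Fgf1 were Ccnd1 (0.40), Stat6 (0.58) and Dpyd (0.58). Among those most like Fgf7 were Colec11 (0.65) and Mobp (0.72). Fgfr2 was nearest to Map7 (0.22), Frmd4b (0.27) and Prickle1 (0.35), and Fgf14 to Tank (0.23) and Sestd1 (0.30). With 4 lists such likeness is a description of breadth alone.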

How the data were processed

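Deposited peak lists of 7 of the 9 samples were used, and the 2 input samples were not analysed here. Antibody amounts were 9 µg (H3K27ac) and 15 µg (SOX6) per sample, per the labels. The submitters' processing notes name Trim Galore 0.3.1, Bowtie2 2.3.2, Picard, deepTools, bedtools and build mm10. Which peak caller and control were used is not given in the sources used here. Every peak carries the authors' score, the authors' fold enrichment, which is a ratio, and the authors' −log10 p and −log10 q, and SOX6 peaks also a summit. These deposited values served to describe or order peaks of a single list. The protocols name 2 sequencers without saying which library used which, so a sequencer effect was not tested.

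Only peaks of the autosomes and sex chromosomes entered, with 1-based coordinates. Genes, start sites and promoter sequences came from RefSeq tables of GRCm38.p6, in which all 9 genes were found. H3K27ac-covered kb per window was rescaled so that every list had one total, and log2 of it plus 1 was fitted with limma 3.58.1 (trend, state and cell line, 1 residual degree of freedom, prior 5.04) over the 12459 genes whose mean reached 1 kb. The fit was tested on simulated data. The cell line is in the model because OPC and OL of a replicate number come from the same line, and their deviations from the state means correlated across genes (r = 0.273, a single pair). Presence means an overlap of at least 1 bp. The text names the 9 genes, called members of the pathway lists (up to 5 in each direction), overlapping genes and up to 3 genes nearest in breadth, and a few items that the rule selects are not reported here. Fgf18, Fgf22, Frs2, Spred3, Csf1r, Aif1, Slc1a2 and Fgf13 were named after their values were seen. The members and lists were chosen with earlier results of these data known. Alternatives were other windows, filters, scaling, pseudocount, peak subsets and models, and leaving out each H3K27ac list.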

Additional observations from a re-analysis of the deposited data

Results flagged for a closer look

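Fgf18 and Fgf22, ligand genes outside the 9 and not called, had estimates of opposite sign in the 2 lines. At Fgf18 H3K27ac breadth in OL minus OPC was 0.031 in 129O1 and −0.91 in EpiSC5, with 1.56 and 1.42 kb in OPC and 1.69 and 0.428 kb in OL. At Fgf22 it was 0.32 in 129O1 and −0.18 in EpiSC5, with 1.59 and 1.57 kb in OPC and 2.37 and 1.503 kb in OL. With 1 library per state and line, the difference between lines was not tested.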

How the results depend on the processing

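Each of the 8 tested FGF genes kept its direction under all alternatives that could be fitted. The change ranged from 2.41 to 4.60 at Fgf7, from 1.10 to 2.08 at Fgfr2, from −4.62 to −1.48 at Fgf1, from −2.71 to −1.44 at Fgf14, from −1.07 to −0.53 at Fgf12 and from −0.80 to −0.07 at Fgfr3, and the call was lost in 3, 5, 4, 4, 9 and 11 of 13 alternatives (12 for Fgfr3). Of the 9 genes, 2 were wider and 4 narrower. When genes of any covered length were tested, limma called 0 wider and 0 narrower, and over all genes 0 and 0, with 4814 at an unadjusted p under 0.05. From the higher-scoring 50% of peaks 1 was wider and 0 narrower, and over all genes 129 and 43 with 3448 at an unadjusted p under 0.05. Without scaling and over the gene body alone 2 were narrower in each case. Over all genes narrower calls were then 1143 of 12443 tested and 1014 of 8148, against 2041 of 12459 in the main fit. With a minimum mean of 3 kb they were 1207 of 5850, and with equal numbers of peaks 1230 of 12269. With 50 kb each side 2383 of 16275 were wider and 3659 narrower. The number of genes tested differs between these settings, so the counts alone do not give the share called. With no replicate block, so without the cell line, 2 of the 9 were wider and 3 narrower, and 1234 and 1368 over all genes. Fgf12 alone of the 9 lost its call there. Leaving out 1 H3K27ac list, with no cell line in the model and the lone sample of a state assumed to vary like the other state, gave 0 to 2 wider and 0 to 3 narrower of the 9, and 0 to 1205 and 0 to 2288 over all genes. Both counts were 0 without OPC of 129O1 (2769 genes at an unadjusted p under 0.05) or without OPC of EpiSC5 (2451). Without OL of EpiSC5, 1 and 2 of the 9 were called, and 597 and 444 over all genes. Windows with SOX6 in OPC of both lines numbered 6 in the 50 kb windows, 1 for the higher-scoring 50% and 0 with equal numbers of peaks, against 3. In OL of EpiSC5 they were 3 with 50 kb and 0 from the higher-scoring 50%, against 1. The higher-scoring 50% left 18 H3K27ac regions of 43, with 2 in OPC alone, 4 in OL alone and 3 in all 4 lists. Equal numbers of peaks left 40 regions, 5 of them in OL alone. With presence set at 50% of the region, 5 of 43 were in all 4 lists. The shares over all genes and all regions under these settings were not counted, so these counts are descriptions. The cause of these differences was not tested. Depth is unknown, so weak peaks may be missing from the shorter lists.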

Other observations

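Outside the windows, the genes without SOX6 differed in how near the next site was. The H3K27ac region beyond Fgf2 carried a SOX6 peak 10.0 kb from the gene body in OPC of 129O1 and 10.1 kb in OL of EpiSC5, at the edge of the window, while the nearest in OPC of EpiSC5 was 90.9 kb away. At Fgf9 the nearest SOX6 peaks were 71.2 kb away in OPC of 129O1 and 71.3 kb in OL of EpiSC5, beside the nearest H3K27ac, and 148.4 kb in OPC of EpiSC5. Both OPC lists had SOX6 33.0 and 32.9 kb from Fgf1 and 16.0 and 16.1 kb from Fgfr3. In OL of EpiSC5 the nearest SOX6 peak was 903.0 kb from Fgf1 and 48.4 kb from Fgfr3.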
